A study of Mus musculus with 12 samples.

Results

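The genes described here are 9 liver genes known to answer to insulin and fasting, namely Igfbp1, G6pc, Pck1, Irs2, Foxq1, Ppp1r3g, Ppp1r3b, Ppp1r3c and Angptl8. They were picked by name, with their values in these livers already known, and all 9 were found by symbol among the 20143 genes of the expression table. The table holds liver RNA-seq libraries of 12 mice, 1 library per mouse, from 6 Hsd17b13-KO (KO) and 6 wildtype (WT) mice. Mice of both genotypes entered the diet at 8 to 10 weeks of age and ate CDAA-HFD for 12 weeks. This diet lacks choline, supplies protein as defined amino acids and is rich in fat, and it is used to produce fatty, inflamed and scarred liver. The HSD17B13 protein sits on lipid droplets of hepatocytes. The sources used here do not give strain, sex, feeding state, hour of collection or how the allele was made.

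After a meal, insulin acting on the hepatocyte receptor activates the kinase AKT, which keeps the transcription factor FOXO1 out of the nucleus. Genes that FOXO1 drives, such as Igfbp1, G6pc, Pck1 and Irs2, are thereby silenced, while genes of storage are switched on. In fasting, low insulin, glucagon and glucocorticoids reverse this, and the liver releases glucose from glycogen and from gluconeogenesis. Transcripts of this kind are known to change within hours of a meal.

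Among the 9 genes, promoter sequences were available for 7, and 5 are shown because the values below turn on them. Igfbp1, G6pc and Irs2 tended to be high in the same livers, Angptl8 was high where Igfbp1 was low, and Pck1 followed this order only in part. Ppp1r3g also tended to be high in the livers where Igfbp1, G6pc and Irs2 were. Its window was searched but is not printed, because it lies inside the GENCODE gene. The bases are those upstream of the RefSeq gene start (GRCm38.p6, which has the coordinates of mm10), written 5′ to 3′ along the gene and ending before the GENCODE gene begins; the RefSeq start of Irs2 lies upstream of its GENCODE gene. Capitals mark matches, on either strand, to CAAAACA (the core of the insulin response element), to TGACG (the core of the cyclic AMP response element) or to CACGTG (the E-box).
Igfbp1 (chr11:7197537-7197781, plus strand): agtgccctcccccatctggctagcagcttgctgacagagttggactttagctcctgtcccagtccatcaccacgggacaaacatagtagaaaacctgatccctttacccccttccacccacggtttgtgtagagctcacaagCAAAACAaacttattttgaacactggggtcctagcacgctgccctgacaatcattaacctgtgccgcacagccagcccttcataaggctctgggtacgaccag
G6pc (chr11:101367466-101367560, plus strand): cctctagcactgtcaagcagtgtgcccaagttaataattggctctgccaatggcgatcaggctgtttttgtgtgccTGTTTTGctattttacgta
Irs2 (chr8:11008930-11009179, minus strand): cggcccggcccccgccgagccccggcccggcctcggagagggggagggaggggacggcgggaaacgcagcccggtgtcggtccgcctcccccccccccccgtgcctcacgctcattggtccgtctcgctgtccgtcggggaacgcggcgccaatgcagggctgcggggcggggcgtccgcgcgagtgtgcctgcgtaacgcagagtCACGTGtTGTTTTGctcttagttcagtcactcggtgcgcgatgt
Pck1 (chr2:173152823-173153047, plus strand): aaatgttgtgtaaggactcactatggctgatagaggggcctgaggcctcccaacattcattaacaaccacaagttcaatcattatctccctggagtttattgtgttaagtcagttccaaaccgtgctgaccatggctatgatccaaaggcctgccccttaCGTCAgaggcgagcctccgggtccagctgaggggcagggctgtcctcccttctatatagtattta
Angptl8 (chr9:21835260-21835509, plus strand): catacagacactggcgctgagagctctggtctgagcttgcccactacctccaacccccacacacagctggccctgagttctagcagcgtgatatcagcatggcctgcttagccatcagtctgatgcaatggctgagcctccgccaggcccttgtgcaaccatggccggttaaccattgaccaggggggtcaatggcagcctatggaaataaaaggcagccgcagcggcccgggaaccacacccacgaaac
The insulin response core CAAAACA, or its other strand TGTTTTG, stood in the 250 bases upstream of 3 of the 7 genes, Igfbp1, G6pc and Irs2, against 5.56% of 32851 promoter windows of the same length. Ppp1r3g, which tended to be high in the same livers as these 3 genes, held no such core. In Igfbp1 it began 108 bases before the RefSeq start, in G6pc 174 bases and in Irs2 37 bases. For G6pc only 95 of the 250 bases searched are printed, since the rest lie inside its GENCODE gene. TGACG or CGTCA stood upstream of Pck1, which is a gene of the cyclic AMP response, and of Ppp1r3g, 2 of 7, against 17.8% of all windows; the TGACG match overlaps any full TGACGTCA match, of which there were 0 in the 7 (1.55% of all windows). CACGTG stood upstream of Irs2 and Ppp1r3c, 2 of 7, against 6.02%. The FOXO core GTAAACA (3.17% of all windows) and the SREBP site TCACNCCA (3.67%) were found in 0 of the 7, and Angptl8 held none of these motifs. These are matches of letters in 1 short window per gene, and they are described without a test.

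The libraries followed their labels. Hsd17b13 itself lay between 0.956 and 1.40 CPM in KO livers, against 315 to 393 CPM in WT livers, where CPM is a gene's counts scaled to a library total of 1000000. From the smallest step between values, 1 CPM stood for 46.3 to 76.6 counts in KO libraries and 52.6 to 77.9 in WT libraries. The lowest value among the 9 genes, Ppp1r3g in KO mouse 6, thus rested on about 53.0 counts, with a counting error of 13.7%, and every other value had a counting error of at most 9.67%. CPM is not scaled by gene length, so levels are compared within a gene only. The sum of 12 hepatocyte markers ranged from 75513 to 90205 CPM in KO and from 72622 to 94325 in WT. Of these 12 markers, 11 had positive KO minus WT differences (median 0.09 on the log2 scale, against -0.03 for all genes). Limma called 0 of them, and 0 had an unadjusted p under 0.05. Among markers of other liver cells, cholangiocyte, stellate and macrophage lists had lower medians in KO and the endothelial list a higher one. Summed, 5 cholangiocyte markers, all 5 lower in KO and 1 of them called, held 154 to 320 CPM in KO, against 260 to 773 in WT. The sum of 7 stellate cell markers was 835 to 1047 CPM in KO, against 944 to 1515 in WT, and that of 8 macrophage markers 993 to 1468 CPM in KO, against 1367 to 2248 in WT, and limma called 0 in either list. At an unadjusted p under 0.05, which 11.3% of all genes reached, stood 6 of 7 stellate and 5 of 7 tested macrophage markers, in both directions: Lrat (0.44 on the log2 scale) and Clec4f (0.59) were positive. All 6 endothelial markers had positive differences (median 0.20, 0 called by limma, 1 at an unadjusted p under 0.05), with sums of 257 to 365 CPM in KO, against 251 to 323 in WT. The part of these cells in the differences below was not tested. Bulk RNA cannot tell fewer cells of a type from less RNA per cell. Pck1, Irs2 and Angptl8 are also expressed in fat. Of 7 adipocyte markers, only Cidec and Fabp4 were found by symbol among the genes measured. Fatty liver also expresses both, and they summed to 36.2 to 58.0 CPM in KO and 30.4 to 61.1 in WT. The pancreatic marker Cela1 reached 94.4 CPM in KO mouse 3 and 224 CPM in WT mouse 1, against at most 7.25 CPM in the other 10 livers, and its part in the results below was not tested.

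Igfbp1 (ENSMUSG00000020429, chromosome 11, 7197782 to 7202546, mm10), a secreted IGF-binding protein that insulin represses, varied more between mice of 1 genotype than nearly all other genes. Its lowest, median and highest values were 32.1, 168 and 292 CPM in KO livers, against 83.5, 255 and 431 CPM in WT livers. Mouse 6 was lowest and mouse 4 highest in each genotype, and the groups overlapped, with 1 of 6 KO livers below every WT liver. The highest liver stood 9.09-fold above the lowest in KO and 5.16-fold in WT. The standard deviation (SD) of log2(CPM + 1) between mice was 1.16 in KO and 0.78 in WT. Pooled over both genotypes it was 0.99, which placed Igfbp1 at rank 13 for spread among the 15648 genes that averaged 1 CPM or more, whose median SD was 0.16. The KO minus WT difference was -0.80 on the log2 scale (SE 0.49, n = 6 each), smaller than this spread.

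G6pc (ENSMUSG00000078650, also called G6pc1, chromosome 11, 101367561 to 101377903), the catalytic subunit of the phosphatase that releases free glucose, followed Igfbp1 closely. Across mice it had lowest, median and highest values of 82.8, 138 and 283 CPM in KO livers, against 137, 226 and 297 CPM in WT livers. In KO, mice 5, 6 and 2 lay below every WT liver, and mouse 4 reached the upper end of WT. KO mice 1 and 3 (167 and 177 CPM) lay above WT mouse 6 only, the next WT liver being mouse 3 at 196 CPM. The pooled SD was 0.55 on the log2 scale, at the 98.8th percentile of all genes. The KO minus WT difference of -0.64 (SE 0.27) was the only one of the 9 that exceeded its own pooled SD.

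Pck1 (ENSMUSG00000027513, chromosome 2, 173153048 to 173159273), the cytosolic enzyme that commits oxaloacetate to gluconeogenesis, varied over a narrower range. Its lowest, median and highest values were 1390.0, 1658 and 2628 CPM in KO livers, against 1233, 1580.3 and 2142 CPM in WT livers. KO mouse 4 was the highest of the 12 livers, and mouse 1 was lowest in each genotype, unlike for Igfbp1 and G6pc. The highest liver was 1.89-fold above the lowest in KO and 1.74-fold in WT, with a pooled SD of 0.33 at the 91.7th percentile. The KO minus WT difference was 0.16 (SE 0.17).

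Irs2 (ENSMUSG00000038894, chromosome 8, 10984681 to 11008458) encodes the adaptor through which the insulin receptor signals in fasted liver. Per liver, the lowest, median and highest values were 63.5, 83.2 and 142 CPM in KO livers, against 89.0, 100.5 and 147 CPM in WT livers. Mice 2, 5 and 6 of KO lay below every WT liver, while KO mice 3 and 4 stood among the highest WT livers. The pooled SD was 0.41, at the 95.9th percentile, and the difference was -0.26 (SE 0.20).

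Foxq1 (ENSMUSG00000038415, chromosome 13, 31556134 to 31560976), a forkhead transcription factor, split KO livers widely. Its lowest, median and highest values were 14.6, 43.5 and 74.8 CPM in KO livers, against 10.7, 17.5 and 60.4 CPM in WT livers. KO mice 1, 3 and 4 held 58.2, 61.0 and 74.8 CPM and KO mice 5 and 6 held 14.6 and 17.4 CPM. In WT only mouse 5 was high, and the other 5 livers lay between 10.7 and 20.1 CPM. The pooled SD of 0.90 ranked 26 among all genes, and the difference was 0.79 (SE 0.44). Foxq1, Irs2, Ppp1r3g and Ppp1r3b each overlap another gene on the opposite strand, of which only the partner of Ppp1r3b was measured (mean 0.433 CPM), and the sources used here do not say whether counting used the strand.

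**Figure D1:**
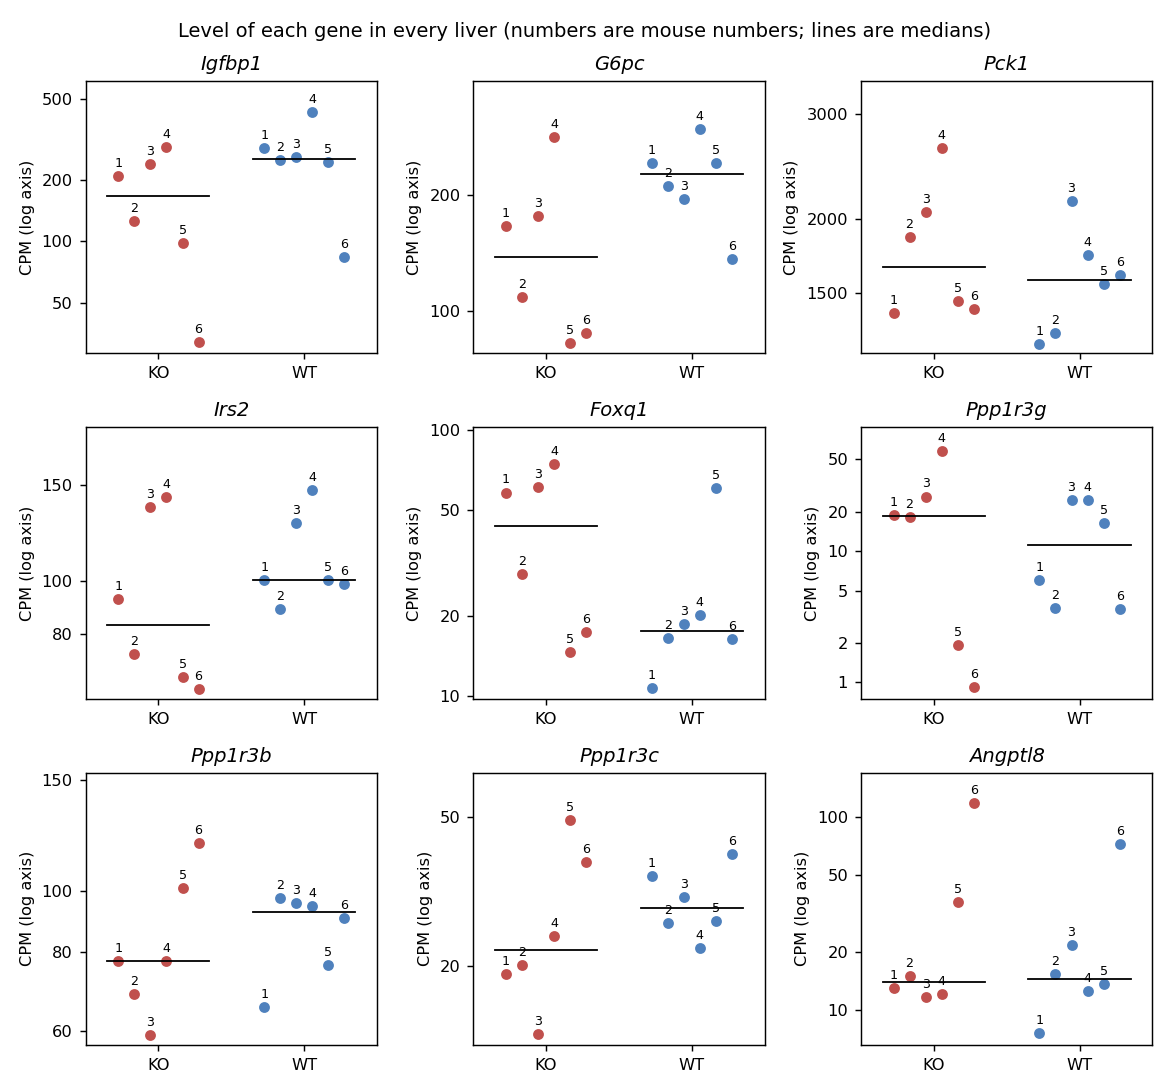
CPM (log axis) of the 9 genes in each of 6 KO livers (left of each panel) and 6 WT livers (right), with mouse numbers beside the points and a line at each median. The groups overlap for every gene, KO mouse 4 is the highest KO liver for the first 6 genes, and Angptl8 is highest in KO mouse 6 (118 CPM) and WT mouse 6 (72.8 CPM).

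The remaining 4 genes concern storage. Protein phosphatase 1 is brought to glycogen by targeting subunits and there activates glycogen synthase; Ppp1r3b, Ppp1r3c and Ppp1r3g encode 3 such subunits, and Ppp1r3g is known in mouse liver as the fasting-induced one. Ppp1r3g (ENSMUSG00000050423, chromosome 13, 35958839 to 35970388) had lowest, median and highest values of 0.918, 18.5 and 57.6 CPM in KO livers, against 3.60, 11.1 and 24.4 CPM in WT livers. KO mice 6 and 5 held 0.918 and 1.93 CPM and lay below every WT liver, while KO mice 3 and 4 held 26.1 and 57.6 CPM and lay above every WT liver. The highest KO liver stood 62.8-fold above the lowest, and the highest WT liver 6.78-fold. The pooled SD of 1.60 ranked 3 of 15648 genes. The difference was 0.17 (SE 0.79), and its sign turned without KO mouse 3 or 4 or WT mouse 2 or 6, with values from -0.29 (without KO mouse 4) to 0.70 (without KO mouse 6) when 1 mouse was left out.

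Ppp1r3b (ENSMUSG00000046794, chromosome 8, 35375739 to 35388139), the main hepatic targeting subunit and a gene that insulin raises, showed the least spread of the 9. Its lowest, median and highest values were 59.1, 77.4 and 119 CPM in KO livers, against 65.6, 92.8 and 97.6 CPM in WT livers. KO mice 5 and 6 lay above every WT liver and KO mouse 3 below. The pooled SD was 0.30, at the 88.9th percentile, the only one of the 9 outside the 10% of genes with the widest spread. The difference was -0.08 (SE 0.15), and 0.02 without KO mouse 3.

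Ppp1r3c (ENSMUSG00000067279, chromosome 19, 36731731 to 36736653), the targeting subunit known as PTG, had lowest, median and highest values of 13.2, 22.1 and 49.1 CPM in KO livers, against 22.4, 28.5 and 39.8 CPM in WT livers. KO mouse 5 lay above every WT liver, and KO mice 1, 2 and 3 lay below. The pooled SD was 0.52, at percentile 98.3, and the difference was -0.24 (SE 0.26).

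Angptl8 (ENSMUSG00000047822, chromosome 9, 21835510 to 21837347), a secreted regulator of lipoprotein lipase that feeding and insulin induce in liver, was high where Igfbp1 was low. Its lowest, median and highest values were 11.7, 14.0 and 118 CPM in KO livers, against 7.58, 14.5 and 72.8 CPM in WT livers. Mouse 6 was highest in each genotype, KO mouse 5 came next in KO with 36.4 CPM, and the other 4 KO livers lay between 11.7 and 15.0 CPM. The pooled SD of 1.18 ranked 5 of 15648 genes. The difference was 0.30 (SE 0.58), and it turned to -0.16 without KO mouse 6. Angptl8 lies inside Dock6 on the opposite strand, and Dock6 ranged from 16.5 to 26.8 CPM in KO and from 16.7 to 26.1 CPM in WT, a far smaller range than that of Angptl8.

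In the comparison of KO with WT, the 9 genes therefore overlapped between genotypes. In a limma fit of all 15648 genes, 0.198% passed an adjusted p of 0.05, and 0 of the 9 genes did; at an unadjusted p under 0.05 there was 1 of 9 (G6pc), against 11.3% of all genes. The groups did not overlap for 0 of the 9, against 1.32% of all genes. Since the genes were chosen with these values known, nothing is read from these counts and no p-value is given for a gene. The median difference was -0.08 for the 9 genes and -0.03 for all genes, with 4 positive and 5 negative, and 8 of the 9 differences were smaller than the pooled SD of the gene. These SDs measure the spread between the 6 mice of a genotype, for which no litter is given. The standard errors come from the limma fit, which moves the variance of each gene toward a trend over all genes. For these widely varying genes they are therefore smaller than the SDs alone would give.

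On the log2 scale the SD between mice was larger in KO for each of the 9 genes, but Foxq1 had the wider fold range in WT (5.12-fold in KO and 5.66-fold in WT). The SD of log2 values in KO exceeded that in WT for 9 of 9, where 48.2% of all genes had the larger SD in KO. The SDs were 1.94 in KO and 1.17 in WT for Ppp1r3g, 0.67 in KO and 0.29 in WT for Ppp1r3c, 0.68 in KO and 0.38 in WT for G6pc, and 0.51 in KO and 0.27 in WT for Irs2. The 9 genes varied together between livers, as described next, so they are not 9 separate observations. The count was 8 of 9 without KO mouse 4 and 7 of 9 without KO mouse 6. Variation of at least 2-fold between the highest and lowest liver in both genotypes was seen for 5 of the 9, Igfbp1, G6pc, Foxq1, Ppp1r3g and Angptl8, against 9.06% of all genes. The 9 genes were chosen with these values known, so nothing is read from these counts of spread.

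**Figure D2:**
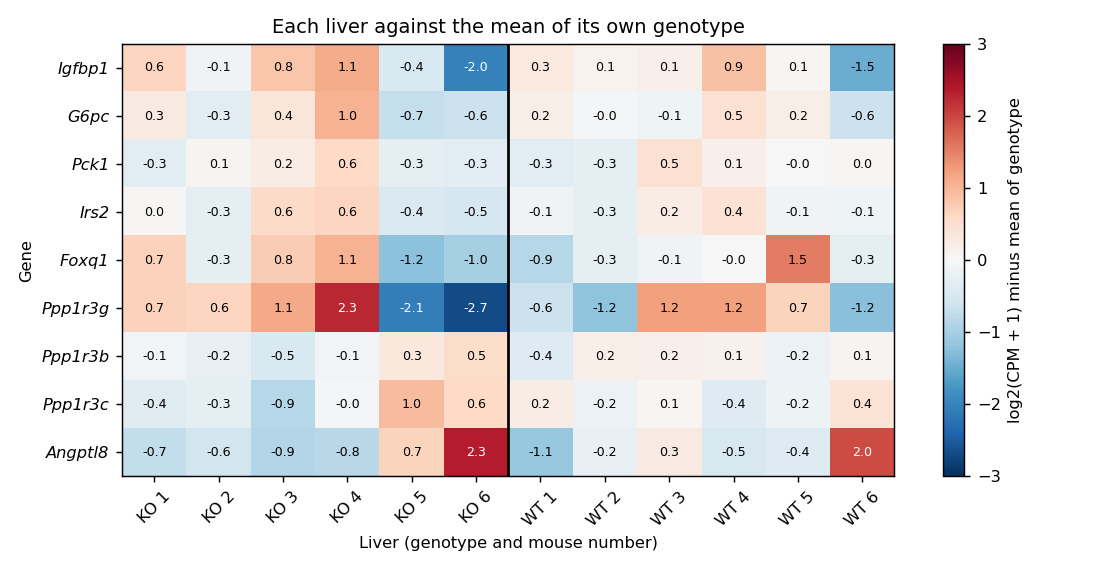
Each cell gives log2(CPM + 1) of a gene (rows) in a liver (columns, KO left and WT right of the line) minus the mean of that genotype, with red above and blue below the mean. KO mice 3 and 4 are red in the upper 6 rows and at or below 0 in the lower 3, KO mice 5 and 6 show the reverse, and WT mouse 6 combines low Igfbp1 with high Angptl8.

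The order of the livers was shared between genes. Within KO, mouse 4 was the highest of 6 for Igfbp1, G6pc, Pck1, Irs2, Foxq1 and Ppp1r3g, and mouse 3 was next highest for all 6 of these genes. KO mice 5 and 6 were the lowest pair for each of these except Pck1, where mouse 1 was lowest, and they were the highest pair for Ppp1r3b, Ppp1r3c and Angptl8. The order was looser in WT: mouse 6 was lowest for Igfbp1, G6pc and Ppp1r3g and highest for Ppp1r3c and Angptl8, but held a middle place for Pck1 and Ppp1r3b. WT mouse 4 was highest for Igfbp1, G6pc and Irs2, WT mouse 3 for Pck1 and Ppp1r3g, and WT mouse 5 for Foxq1.

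Correlations of log2 values, each liver taken against the mean of its genotype, show the same division. They are given over the 12 livers as a description, without p-values, because these genes were chosen with these values known; the 36 pairs share the same libraries. All 15 pairs among Igfbp1, G6pc, Pck1, Irs2, Foxq1 and Ppp1r3g were positive (Pearson's r 0.42 to 0.86), all 3 pairs among Ppp1r3b, Ppp1r3c and Angptl8 were positive (0.64 to 0.76), and all 18 pairs across these sets were negative (-0.93 to -0.21). The sign was the same within KO and within WT for 14 of the 15, 2 of the 3 and 14 of the 18 pairs. In WT, Ppp1r3b was positive with Pck1 (0.53), Irs2 (0.31) and Ppp1r3g (0.13), and G6pc was negative with Pck1 (-0.12). The division into sets was made after seeing the values. Whichever mouse was left out, all pairs within the sets and 17 of the 18 across them kept their sign; the exception, Pck1 with Angptl8, was 0.02 without KO mouse 6.

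**Figure D3:**
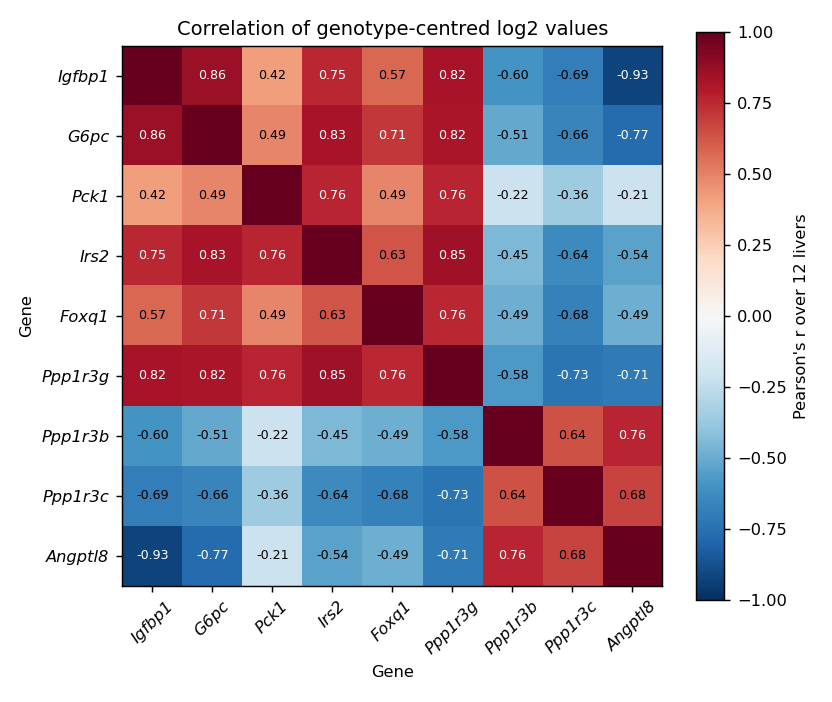
Pearson's r of genotype-centred log2(CPM + 1) over 12 livers for each pair of the 9 genes (both axes), from blue (-1) to red (1). The upper left block of 6 genes and the lower right block of 3 are positive throughout, and Igfbp1 with Angptl8 is the most negative pair at -0.93.

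Igfbp1 and Angptl8 were the pair with the largest Pearson's r in size (r -0.93), though not by Spearman's rho (-0.78). It was seen in each genotype (r -0.96 in KO and -0.88 in WT) and was weaker, at -0.67, without KO mouse 6 and WT mouse 6, the livers farthest from the median of Igfbp1. Igfbp1 and G6pc had r 0.86 and rho 0.94, with r 0.84 in KO, 0.95 in WT and 0.94 without the same 2 livers. Ppp1r3g and Irs2 had r 0.85 and rho 0.91, with 0.85 in KO and 0.84 in WT. Other pairs rested on KO livers. Irs2 with Foxq1 had r 0.92 in KO and 0.01 in WT, Igfbp1 with Foxq1 0.86 in KO and 0.07 in WT, and Igfbp1 with Pck1 0.65 in KO and 0.01 in WT. Ppp1r3b with Ppp1r3c had r 0.91 in KO and -0.32 in WT, and Pck1 with Angptl8 -0.59 in KO and 0.37 in WT. The difference of these values between genotypes was not tested.

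**Figure D4:**
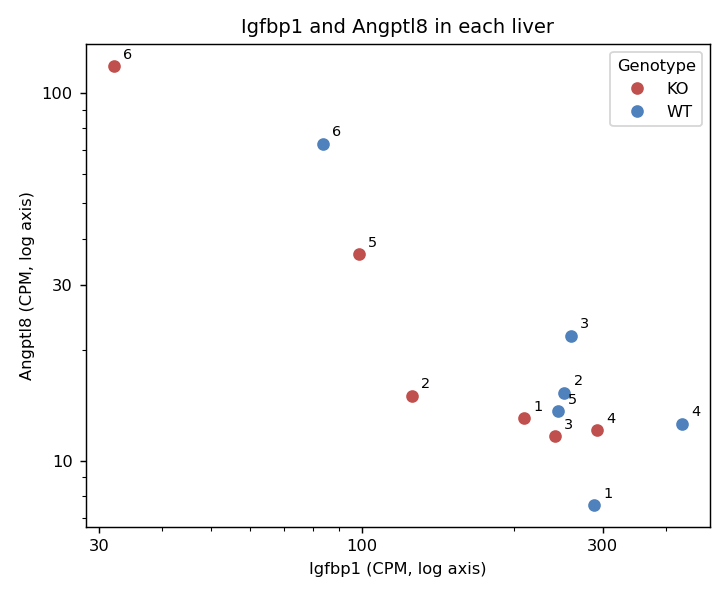
Angptl8 against Igfbp1 in CPM (both axes log) for 6 KO and 6 WT livers, numbered by mouse. KO mouse 6, WT mouse 6 and KO mouse 5 combine the lowest Igfbp1 (32.1, 83.5 and 98.4 CPM) with the highest Angptl8 (118, 72.8 and 36.4 CPM), and the other 9 livers lie at 126 CPM of Igfbp1 or more and 21.8 CPM of Angptl8 or less.

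Other genes whose pattern was most like each of the 9 were sought among the 9186 genes that averaged 10 CPM or more, by Pearson's r of genotype-centred log2 values over 12 livers. Igfbp1 was followed most closely by Jmy (r 0.95), Pitrm1 (0.94) and L3hypdh (0.92). L3hypdh was also among the 3 most like G6pc (0.87, after Ngfr and Lurap1l at 0.88 each) and Ppp1r3g (0.90, after Etnppl and Rab3ip at 0.91 each). Pck1 had a different set, Klf15 (0.96), a fasting-induced transcription factor of amino acid breakdown, Dedd2 (0.93) and Cobll1 (0.92). Irs2 was most like Imp3 (0.95), Pcbp4 (0.93) and Myc (0.91), and Foxq1 was most like Arid5b, Rnaseh2a and Fbxo21 (0.92 each). Ppp1r3b was followed by Pid1 and Rpl10 (0.92 each) and Sdhaf2 (0.91), and Ppp1r3c by Hnrnpf (0.94), Hsp90b1 and Cxcl12 (0.89 each). Angptl8 was most like the plasma protein genes Hp (0.97) and Fgl1 (0.97) and the transcription factor gene Hes1 (0.96). Hp, haptoglobin, held 4372 CPM in KO mouse 6 and 3773 CPM in WT mouse 6, above the other 5 livers of each genotype, and Fgl1 held 393 CPM in KO mouse 6 and 287 CPM in WT mouse 6. These genes were found by searching 9186 genes over only 12 livers, and nothing on shared function or control is read from them.

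Most other genes that carry the insulin signal varied less than the 9 genes that answer to it. The 9 were chosen with these values known, so nothing is read from this contrast. Irs2, itself an adaptor of this signal, was counted with the 9 only. For 31 other insulin signalling genes (receptor, adaptors, kinases and brakes), the median pooled SD was 0.12, against 0.55 for the 9. That median lay at the 26.8th percentile of all genes. Only Trib3, with an SD of 0.54, lay among the 10% of genes with the widest spread. Insr, the insulin receptor, ranged from 222 to 264 CPM in KO and from 218 to 266 CPM in WT. The median SD was 0.13 for 23 other genes of gluconeogenesis and 0.15 for 21 other genes of glycogen metabolism. It was wider for 17 genes that insulin and sugar induce (0.27), for 26 fasting-induced genes (0.28), for 19 clock genes (0.41) and for 12 glucocorticoid response genes (0.43). Among the clock genes, Dbp, an output of the clock, ranged from 33.8 to 103 CPM in KO and from 5.61 to 72.3 CPM in WT. The SD was larger in KO for 12 of 17 insulin and sugar induced genes, 13 of 23 gluconeogenesis genes, 12 of 21 glycogen genes, 16 of 31 insulin signalling genes, 11 of 26 fasting-induced genes, 4 of 12 glucocorticoid response genes and 2 of 19 clock genes.

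**Figure D5:**
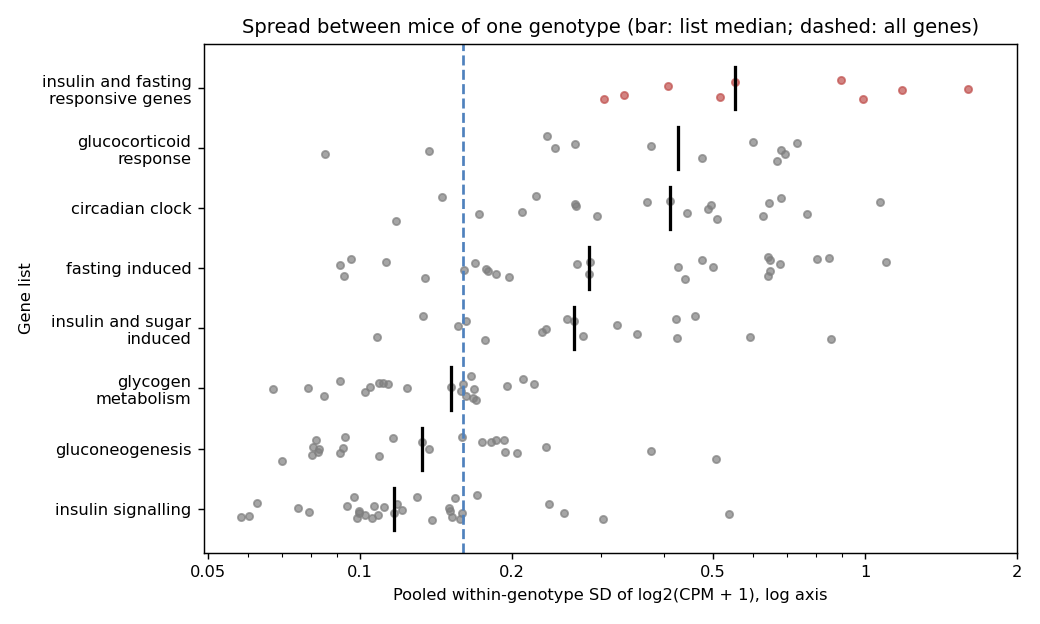
Pooled within-genotype SD of log2(CPM + 1) (log axis) for each gene (points) of 8 lists (rows), with a bar at the list median and a dashed line at 0.16, the median of all 15648 genes. The 9 genes lie between 0.30 and 1.60, to the right of the median of every other list except Ppp1r3b, Pck1 and Irs2, and most insulin signalling genes lie left of the dashed line.

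The same lists were compared between genotypes, and limma called 0 genes in each, where it called 0.198% of all genes. Of all genes, 11.3% had an unadjusted p under 0.05, and their median difference was -0.03. Counts below that lie near this share are not read as results of a list. Gluconeogenesis genes had 18 of 23 positive differences (median 0.12, 3 at an unadjusted p under 0.05). Pcx, pyruvate carboxylase, was at 573 ± 47.4 CPM in KO and 501 ± 38.9 in WT (SD, n = 6 each; log2 difference 0.19, limma adjusted p = 0.254); Eno1 and Tpi1, enzymes shared with glycolysis, differed by 0.12 each (0.41 and 0.431). Insulin and sugar induced genes had 14 of 17 positive (median 0.07, 3 at an unadjusted p under 0.05). Thrsp, a lipogenic gene, was at 30.9 ± 15.8 CPM in KO and 15.3 ± 9.39 in WT (0.96, limma adjusted p = 0.404), Khk, the fructose kinase, at 133 ± 8.81 in KO and 113 ± 17.2 in WT (0.23, 0.282), and Acacb, an acetyl-CoA carboxylase, at 54.9 ± 15.2 in KO and 40.7 ± 7.29 in WT (0.39, 0.421).

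Fasting-induced genes had 11 of 26 positive (median -0.05, 2 at an unadjusted p under 0.05, which 11.3% of all genes reached). Pdk4, the kinase that shuts off pyruvate oxidation in fasting, was at 29.9 ± 11.5 CPM in KO and 52.2 ± 26.5 in WT (log2 difference -0.70, limma adjusted p = 0.462), Ppara at 142 ± 14.2 in KO and 125 ± 14.9 in WT (0.19, 0.421), and Sesn3 at 94.7 ± 6.08 in KO and 103 ± 6.88 in WT (-0.13, 0.431). Insulin signalling genes had 13 of 31 positive (median -0.01, 1 at an unadjusted p under 0.05). Grb10, an adaptor that restrains the insulin receptor, was at 10.4 ± 1.54 CPM in KO and 14.8 ± 4.48 in WT (-0.44, limma adjusted p = 0.247), and Phlpp1 and Pik3r1 differed by -0.11 and 0.13 (0.564 and 0.639). Glycogen genes had 14 of 21 positive (median 0.03, 3 at an unadjusted p under 0.05), with Pgm1 at 0.18, Gbe1, the branching enzyme, at 0.25 and Stbd1, a glycogen-binding protein, at -0.26 (limma adjusted p = 0.217, 0.273 and 0.232).

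Clock genes had 12 of 19 positive (median 0.18) and 9 at an unadjusted p under 0.05, the most of these lists, where 11.3% of all genes reached it. Arntl, which encodes BMAL1, was at 9.48 ± 3.16 CPM in KO and 16.7 ± 6.03 in WT (log2 difference -0.73, limma adjusted p = 0.219), its partner Npas2 at 3.27 ± 0.845 in KO and 6.02 ± 2.23 in WT (-0.67, 0.173), and Nfil3, a repressor of clock outputs, at 15.6 ± 3.62 in KO and 25.7 ± 6.97 in WT (-0.67, 0.127). Glucocorticoid response genes had 9 of 12 positive (median 0.07, 2 at an unadjusted p under 0.05), with Fkbp5, a chaperone that glucocorticoids induce, at 37.9 ± 5.77 CPM in KO and 27.5 ± 4.63 in WT (0.45, limma adjusted p = 0.114), Sgk1 at -0.29 (0.4) and Hsd11b1 at 0.12 (0.651).

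Pck1 moved with several genes of these lists, and Igfbp1 with few. With Pck1, 4 of 26 fasting-induced genes had r of at least 0.7 over the 12 livers, Klf15, Tat (0.91), Lpin1 (0.84) and Cebpb (0.79), where 1.57% of all genes did, and Vnn1 (-0.84) and Cyp4a10 (-0.74) were among those with r of -0.7 or lower, where 1.52% of all genes did. Tat, the tyrosine aminotransferase that glucocorticoids and glucagon induce, held 993 CPM in KO mouse 4 and 892 CPM in WT mouse 3, the livers where Pck1 was highest in their genotypes. Per1, a clock gene that glucocorticoids also induce, had r 0.80 with Pck1, and Foxo3 and Foxo1 had 0.88 and 0.74. With Igfbp1, 0 of the list genes had r of at least 0.7 (0.997% of all genes), and Vnn1 (-0.77), Elovl6 (-0.81) and Gapdh (-0.78) had -0.7 or lower (1.45%). With Angptl8, Gapdh (0.86), Per2 (0.76), Elovl6 (0.74), Hlf (0.73), Tkfc (0.72) and Pik3r1 (0.71) had r of at least 0.7, where 3.01% of all genes did, and Pdk4 (-0.73), Ugp2 (-0.70) and Rora (-0.70) had -0.7 or lower (1.16%). These genes were named for their r after it was seen. The part that hour of collection or feeding played in any of these values was not tested.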

How the data were processed

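Liver RNA of 6 KO and 6 WT mice was sequenced, 1 library per mouse. Per the labels' protocols, the directional kit followed removal of globin and ribosomal RNA, although the molecule label says polyA RNA. The submitters' processing notes list mm10, Partek 10.0, STAR 2.7.3a and DESeq2 1.14.1; which step each served, the annotation and the strand setting are unstated. The authors deposited a single CPM table whose columns each sum to 1000000. Low values fell within 0.02 of a whole multiple of the smallest step for 71.4% to 76.5% per library (4% if evenly spread). That was too few to recover whole reads, so a count test was not used. The step gave the counts per CPM, and errors from it cover counting only.

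Columns were mapped by sample titles, and 20055 of 20143 IDs had a GENCODE symbol. The 15648 genes averaging 1 CPM or more were fitted on log2(CPM + 1) with limma 3.58.1 (R 4.3.3; variance moderated along a mean trend; p-values two-sided and adjusted by Benjamini-Hochberg over all genes, threshold 0.05, no covariates); the code was tested on simulated data. Spread is the SD of log2(CPM + 1) within a genotype, pooled over both. Descriptions used Python 3.11.15. The 9 genes, the lists and the tests were chosen with earlier results of these data known. Named are the 9 genes, Hsd17b13, the 3 genes of smallest p in each of 7 lists and the 3 genes most like each of the 9; Insr, Dbp, Cela1, Dock6 and the list genes correlated with Pck1, Igfbp1 or Angptl8 were named after their values were seen. Promoters are from RefSeq (GRCm38.p6). A correlation of 1 list gene with Pck1 is not reported here. Alternatives were other pseudocounts, filters and scalings, no trend, a replicate block and leaving out each mouse.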

Additional observations from a re-analysis of the deposited data

Results flagged for a closer look

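Among 18 sets of 6 livers (9 genes in 2 genotypes), 2 held a liver set apart from the others. The gap passed Dixon's 95% limit on the log2 scale, which chance passes in about 1 in 20 sets. The 9 genes were chosen with these values known and varied together over the same livers. Nothing is therefore read from the number of sets flagged. Igfbp1 in WT mouse 6 was the lowest of its genotype at 83.5 CPM, where the next WT liver held 245 CPM, and the gap took 0.655 of the range. Angptl8 was highest of the 6 WT livers in the same mouse. Foxq1 in WT mouse 5 was the highest of its genotype at 60.4 CPM, where the next WT liver held 20.1 CPM, and the gap took 0.644 of the range. In that mouse Igfbp1 was 245 CPM, above WT mouse 6 and below the other 4 WT livers, and Angptl8 was 13.6 CPM.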

How the results depend on the processing

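Over all genes, limma called 31 genes, 16 higher and 15 lower in KO. It called 20 with a pseudocount of 10 (14 higher, 6 lower), 14 of the 9186 genes averaging 10 CPM or more (10 higher, 4 lower), 62 with median-of-ratios rescaling (24 higher, 38 lower) and 76 with quantile normalization (35 higher, 41 lower); the cause was not tested. Leaving out 1 mouse gave 15 to 50 calls, the lowest without WT mouse 3 and the highest without KO mouse 3. The fit with the replicate block gave 43 calls (11 higher, 32 lower). Deviations of same-numbered KO and WT mice from their genotype means correlated between -0.51 and 0.42 over all genes, so the mouse numbers were not taken to pair the mice. None of the 9 genes' differences moved by as much as its pooled SD under any of 20 alternatives, but the sign turned under 4 for Ppp1r3g and under 1 each for Ppp1r3b and Angptl8. The pooled SD of Ppp1r3g was 0.84 with a pseudocount of 10, against 1.60. The median SD of the 9 stayed between 0.52 and 0.58. Genes of the other glucose and fasting lists called by limma numbered 0 in all of these fits. Of the 36 pairs, 15 had r of at least 0.7 or of -0.7 or lower, and 10 to 20 did when 1 mouse was left out, an alternative chosen after seeing the data. Over the alternatives the difference of Igfbp1 ranged from -1.09 (without WT mouse 6) to -0.39 (without KO mouse 6).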
